A study of Mus musculus with 14 samples.

Results

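The signalling adaptors and phospholipase C gamma genes of mast cells are described here across cultured mouse mast cells that carried or lacked Pla2g3. The group holds 10 genes, taken from 27975 gene names on the array by the probe names in the scanner files. They are the adaptors Lat, Lat2, Lcp2, Grap2 and Gab2, the exchange factor Vav1, the phospholipases Plcg1 and Plcg2, and the calcium entry genes Stim1 and Orai1. They had 16 probes, and all 10 genes were tested. RNA was measured on 14 single-colour Agilent mouse arrays. Knockout cocultured cells filled 3 arrays, wild-type cocultured cells 4, knockout BMMCs 4 and wild-type BMMCs 3. BMMCs are mast cells raised from bone marrow in IL-3, here for 4 to 6 weeks, and are immature. Cocultured cells were BMMCs kept for 96 h on Swiss 3T3 cells, a mouse fibroblast line, with 100 ng/ml stem cell factor, then released with trypsin and harvested as the cells that did not adhere after reseeding. Knockout cells were Pla2g3-/-, without the group III secreted phospholipase A2, and wild-type cells were Pla2g3+/+. All 4 groups carried the strain label C57BL/6.129Sv-N3, and no age was given. Fibroblasts and stem cell factor came together in the labels, so their effects cannot be told apart. Whether the arrays of a group stem from different mice or cultures is not given in the labels. The p-values therefore cover the spread between these samples alone, and that spread may be technical.

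When IgE on a mast cell is cross-linked by antigen, Src and Syk family kinases phosphorylate the membrane adaptor LAT on tyrosines. GADS (Grap2) and SLP-76 (Lcp2) dock there with VAV1 and phospholipase C gamma, which makes diacylglycerol and inositol trisphosphate. Inositol trisphosphate empties calcium from the endoplasmic reticulum, STIM1 senses the loss, and ORAI1 lets calcium in, which is needed for degranulation. GAB2 and the LAT relative LAT2, also called NTAL or LAB, feed a parallel branch towards phosphoinositide 3-kinase and also act below KIT, the stem cell factor receptor.

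The probes of 3 genes are shown because the results on Lat, Lat2 and Plcg1 turn on them. The Lat probe is the one whose difference passed the test, the Lat2 probe is the one that passed where the other Lat2 probe did not, and the Plcg1 probes disagreed. Positions are those in the scanner files on mm9. Capitals mark codons that read tyrosine, any amino acid and asparagine in a frame without a stop, the pattern to which GRB2 and GADS bind when the tyrosine is phosphorylated. They are a match of letters in the probe and no measured site.
Lat A_51_P495242, chr7:133507719-133507778, minus strand: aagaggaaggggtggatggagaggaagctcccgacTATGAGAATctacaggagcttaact
Lat2 A_52_P426049, chr5:135080627-135081816, minus strand: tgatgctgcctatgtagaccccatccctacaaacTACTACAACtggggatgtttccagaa
Plcg1 A_51_P377035, chr2:160558083-160558142, plus strand: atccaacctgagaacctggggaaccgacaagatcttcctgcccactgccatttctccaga
Plcg1 A_52_P672850, chr2:160587192-160587344, plus strand: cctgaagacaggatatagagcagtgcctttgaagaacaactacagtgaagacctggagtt
The Lat2 probe and the second Plcg1 probe span 1190 and 153 bases of the genome with 60 letters, so each crosses a gap in the alignment. The Plcg1 probes were designed to different transcript records. No annotation of mm9 was used here, so exon, intron and untranslated parts are not stated.

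Levels are given as the log2 signal minus that of the array's 75th percentile, which is thus 0, and levels of different probes are not set against each other. The Pla2g3 probe stood at -3.13, -1.70 and -1.88 on the knockout cocultured arrays and -4.23, -3.15, -4.07 and -2.13 on the wild-type cocultured arrays. It stood at -1.37, -1.27, -1.56 and -1.92 on the knockout BMMC arrays and -3.71, -4.63 and -2.91 on the wild-type BMMC arrays. It was thus higher in knockout than in wild-type BMMCs without overlap; whether the deleted part of the gene holds this probe is not given in the sources used here, so the probe does not check the labels. The mast cell genes Kit, Fcer1a and Ms4a2 were well above background on all arrays that gave a value. Wild-type cocultured 3 and knockout cocultured 3 shared slide 4 with knockout BMMC 4, and that slide has another scan date than the other 3. Across all genes tested both correlated better with cocultured arrays of the opposite genotype than with their own. Knockout cocultured 3 had a mean r of 0.938 with the wild-type and 0.916 with the other knockout cocultured arrays, and wild-type cocultured 3 had 0.955 with the knockout and 0.911 with the other wild-type ones. Wild-type cocultured 1 did so less clearly, at 0.947 and 0.938. The labels were kept. Results that rest on cocultured arrays are given with and without the slide 4 pair, whose omission was chosen with earlier results known. Each array of the pair correlated less well with its own group, so leaving both out tends to narrow the spread within groups. That favours calls, also for coculture, and p-values without the pair describe the remaining arrays and are no independent test. The summed signal of 19 fibroblast markers was 49.2 to 91.3 on knockout cocultured arrays, 53.1 to 466 on wild-type cocultured arrays, 21.5 to 29.8 on knockout BMMC arrays and 19.4 to 25.0 on wild-type BMMC arrays, in units of the 75th percentile. On BMMC arrays 3 to 5 of these markers were well above background, and Col1a1, Col3a1 and Dcn were so on none.

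Lat was higher in cocultured than in immature knockout cells by 2.85-fold, and by 1.93-fold when both genotypes were averaged, and it is the sole gene of the 10 that passed the test on all 14 arrays. Plcg2 and Plcg1 had average log2 differences of -0.68 and -0.73, with lower means after coculture in both genotypes, without passing. Orai1 differed by no more than 0.12 in either genotype. In knockout cells limma called 1 of 10 genes, which rose, against 14.5 percent of all 16012 genes tested, or 8.5 percent higher, at a Benjamini-Hochberg adjusted p under 0.05. In wild-type cells it called 0 of 10, against 12.6 percent of all genes, and 2 of 10 had an unadjusted p under 0.05, against 26.1 percent. Averaged over both genotypes it called 1 of 10, against 28.7 percent of all genes, or 15.3 percent higher. The median difference over the 10 genes was 0.23, 0.01 and 0.16 in these comparisons, and 0.11, -0.01 and 0.05 over all genes.

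**Figure D1:**
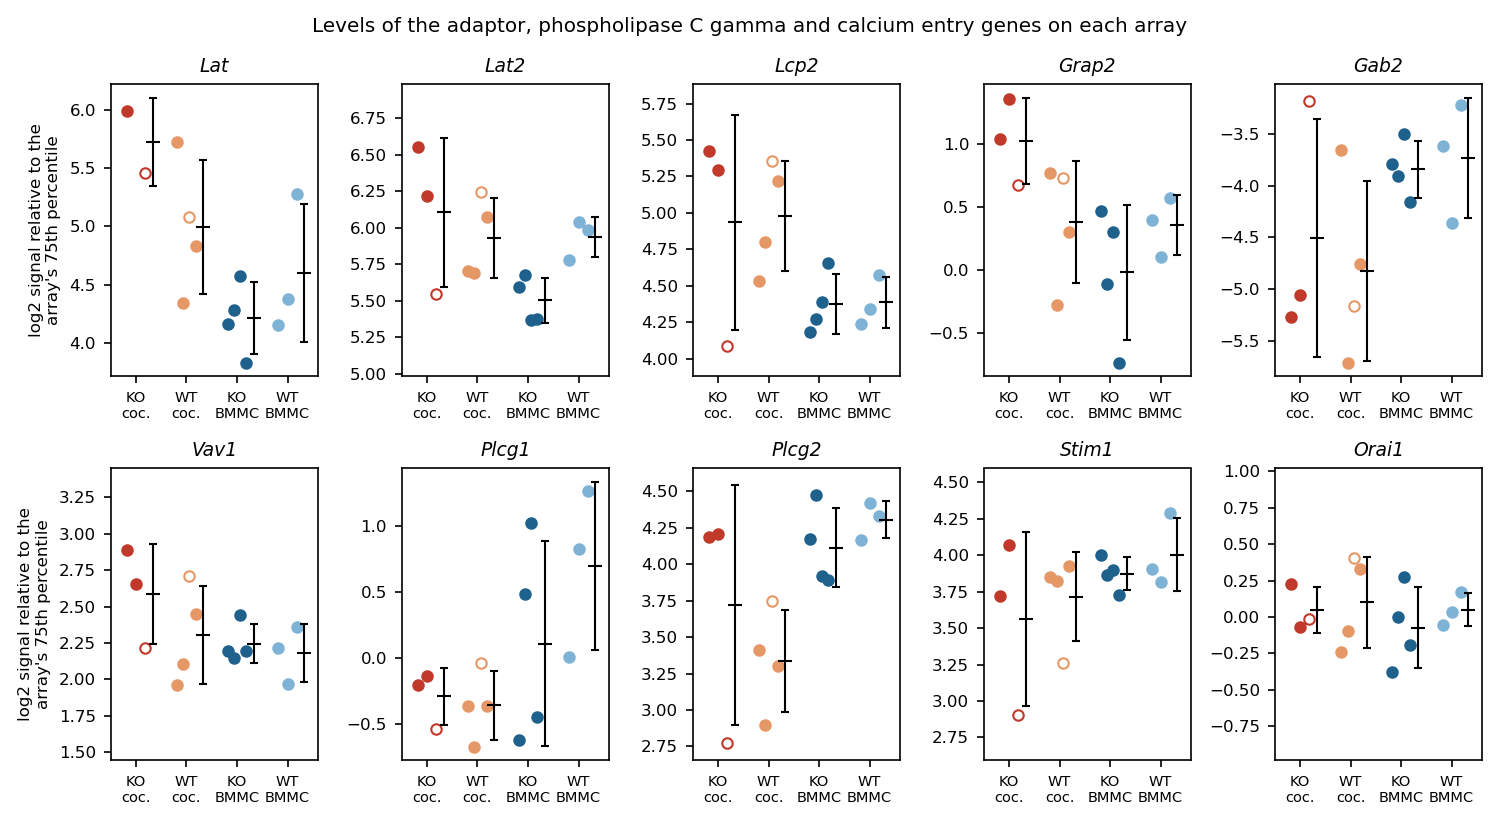
Level of each gene on every array, as log2 signal relative to the array's 75th percentile, on the vertical axis, by group from knockout (KO) cocultured on the left to wild-type (WT) BMMC on the right. Points are arrays, bars are mean ± SD, and open points are the cocultured pair of slide 4; both Lat values in knockout cocultured cells lie above all 4 in knockout BMMCs, and Plcg2 is lower on all 4 wild-type cocultured arrays than on any wild-type BMMC array.

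Lat, the membrane scaffold of the pathway, stood at 5.99 and 5.45 on the knockout cocultured arrays 1 and 3; its spot on array 2 was left out as a scanner outlier. It stood at 5.73, 4.34, 5.08 and 4.83 on the wild-type cocultured arrays. It stood at 4.16, 4.28, 4.58 and 3.83 on the knockout BMMC arrays and at 4.16, 4.38 and 5.27 on the wild-type BMMC arrays. Both knockout cocultured values lay above every BMMC array, while wild-type cocultured and wild-type BMMC arrays overlapped. Of all genes, 28.4 percent had no overlap between knockout cocultured cells and knockout BMMCs. In knockout cells the log2 difference was 1.51 (SE 0.42, limma adjusted p = 0.0327, 13 arrays). In wild-type cells it was 0.39 (SE 0.37, adjusted p = 0.567), and the average was 0.95 (SE 0.28, adjusted p = 0.0229). The difference between the genotypes' coculture responses was 1.12 (95% interval -0.09 to 2.33, adjusted p = 0.995), so a larger response in knockout cells was not shown. Ordered by mean level, knockout cocultured cells (5.72) were followed by wild-type cocultured cells (4.99), wild-type BMMCs (4.60) and knockout BMMCs (4.21), and no neighbours in that order differed past the threshold.

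The Lat call rested on few arrays. Within slides that held both groups, the knockout difference was 1.83 on slide 1 and 1.62 on slide 4, and the wild-type difference was 1.35 on slide 2 and -0.69 on slide 3. The knockout call ended when knockout BMMC 1, 2 or 4 or knockout cocultured 1 was left out, with adjusted p up to 0.203 and a log2 difference of 1.24 to 1.78 over all 14 omissions. Without the slide 4 pair the knockout difference rested on 1 cocultured array and was 1.78 (SE 0.55, adjusted p = 0.0342). It was 1.16 (adjusted p = 0.0548) after quantile normalization, 1.45 (adjusted p = 0.101) with scaling to the array median and 0.89 (adjusted p = 0.228) on the authors' normalized values, so its direction held and the call did not. The average over genotypes also lost its call without wild-type BMMC 1, wild-type BMMC 2 or knockout cocultured 1, with adjusted p up to 0.0993.

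Lat2, which like LAT sits in the membrane and is phosphorylated on tyrosines, had 2 kept probes. The probe with the higher mean, A_51_P242930, stood at 6.55, 6.22 and 5.55 on knockout cocultured arrays, 5.71, 5.69, 6.25 and 6.08 on wild-type cocultured arrays, 5.59, 5.67, 5.37 and 5.38 on knockout BMMC arrays and 5.78, 6.04 and 5.99 on wild-type BMMC arrays. Cocultured and BMMC arrays overlapped in both genotypes. In BMMCs every knockout array lay below every wild-type array, as in 3.96 percent of all genes in either direction, with a log2 difference of -0.43 (adjusted p = 1). The coculture difference was 0.60 in knockout cells (SE 0.26, adjusted p = 0.140) and -0.01 in wild-type cells (SE 0.26, adjusted p = 0.994). The probe printed above, A_52_P426049, stood at 4.43, 3.96 and 4.22 on knockout cocultured arrays, 3.66, 3.84, 4.82 and 4.22 on wild-type cocultured arrays, 3.37, 3.56, 3.34 and 3.84 on knockout BMMC arrays and 3.57, 3.73 and 3.65 on wild-type BMMC arrays. On this probe the difference in wild-type cells was 0.49 (SE 0.28, adjusted p = 0.300), and the average over genotypes, 0.58 (SE 0.20, adjusted p = 0.0417), passed in a fit with 1 test per probe. The average on the other probe was 0.30 (adjusted p = 0.251) in the same fit.

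Of the cytosolic adaptors, Lcp2, the SLP-76 scaffold, had higher means after coculture in both genotypes, though with normexp background correction the knockout difference was -0.07. It stood at 5.43, 5.30 and 4.09 on knockout cocultured arrays, 4.54, 4.80, 5.36 and 5.22 on wild-type cocultured arrays, 4.18, 4.27, 4.39 and 4.65 on knockout BMMC arrays and 4.24, 4.34 and 4.57 on wild-type BMMC arrays. Of the 7 cocultured arrays, knockout cocultured 3 alone stood below all BMMC arrays, and the other knockout cocultured arrays stood above them all. The average difference was 0.58 (SE 0.23, adjusted p = 0.0767). Without the slide 4 pair it was 0.73 (SE 0.16, adjusted p = 0.00505), and in knockout cells 0.99 (SE 0.23, adjusted p = 0.00919). Leaving that pair out favours such calls, as stated above.

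Grap2, the GADS adaptor that joins SLP-76 to LAT, stood at 1.04, 1.35 and 0.67 on knockout cocultured arrays, 0.77, -0.28, 0.73 and 0.30 on wild-type cocultured arrays, 0.46, -0.12, 0.30 and -0.74 on knockout BMMC arrays and 0.40, 0.10 and 0.56 on wild-type BMMC arrays. All knockout cocultured arrays lay above all knockout BMMC arrays, as in 28.4 percent of all genes in either direction. The wild-type groups overlapped. The difference was 1.04 in knockout cells (SE 0.34, adjusted p = 0.0563) and 0.02 in wild-type cells (SE 0.34, adjusted p = 0.977). A second probe, A_52_P150683, was designed to another transcript record. Its difference was 0.56 in knockout cells and 0.88 in wild-type cells (adjusted p = 0.557 and 0.378), and the groups overlapped in both genotypes. The remaining probe was well above background on 1 of 14 arrays and was not tested.

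Gab2, which recruits phosphoinositide 3-kinase, was well above background on 1 of 3 knockout cocultured, 1 of 4 wild-type cocultured, 3 of 4 knockout BMMC and 2 of 3 wild-type BMMC arrays. Its level was -5.28, -5.06 and -3.18 on knockout cocultured arrays, -3.65, -5.72, -5.17 and -4.76 on wild-type cocultured arrays, -3.79, -3.91, -3.49 and -4.16 on knockout BMMC arrays and -3.62, -4.36 and -3.21 on wild-type BMMC arrays. The groups overlapped within each genotype. This probe passed the filter on low values mainly through BMMC arrays, so testing its coculture difference is no support for a fall. The average difference was -0.88 (SE 0.38, adjusted p = 0.104). It turned to 0.10 with normexp background correction, so for this dim probe the direction did not hold under all settings. Its highest signal, 15.5, lay below the constant of 67 to 172 per array that the authors took off. All its values there were thus set to the same floor, and the difference of 0 on them was fixed and carries no direction.

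Vav1, a guanine nucleotide exchange factor for small GTPases, had levels of 2.21 to 2.89 on knockout cocultured arrays, 1.97 to 2.71 on wild-type cocultured arrays, 2.14 to 2.44 on knockout BMMC arrays and 1.97 to 2.36 on wild-type BMMC arrays. Its coculture difference was 0.34 in knockout cells (95% interval -0.19 to 0.87) and 0.13 in wild-type cells (95% interval -0.40 to 0.65), with adjusted p of 0.383 and 0.811. Its second probe gave 0.16 and 0.08.

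Plcg2, the phospholipase C gamma found mainly in blood cells, came closest to the threshold among the genes with lower means on average. It stood at 4.18, 4.20 and 2.77 on knockout cocultured arrays and 3.41, 2.90, 3.75 and 3.30 on wild-type cocultured arrays. It stood at 4.17, 4.47, 3.92 and 3.89 on knockout BMMC arrays and 4.17, 4.42 and 4.33 on wild-type BMMC arrays. Every wild-type cocultured array lay below every wild-type BMMC array, as in 25.5 percent of all genes in either direction. In knockout cells, cocultured arrays 1 and 2 stood among the BMMC arrays and array 3 well below them. The difference was -0.97 in wild-type cells (SE 0.34, adjusted p = 0.0857), -0.39 in knockout cells (SE 0.34, adjusted p = 0.483) and -0.68 on average (SE 0.24, adjusted p = 0.0513). Within slides 2 and 3 the wild-type difference was -1.01 and -1.23. The knockout difference was 0.01, -0.27 and -1.12 on slides 1, 2 and 4. Without the slide 4 pair the wild-type difference was -1.10 (SE 0.21, adjusted p = 0.00408) and passed, and the knockout difference was 0.08 (SE 0.22, adjusted p = 0.822). Such a call is favoured by the omission, as stated above.

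Plcg1, the broadly expressed phospholipase C gamma, gave different answers on its probes. On A_51_P377035 it stood at -0.20, -0.13 and -0.54 on knockout cocultured arrays, -0.36, -0.67, -0.04 and -0.36 on wild-type cocultured arrays, -0.62, 0.48, 1.02 and -0.45 on knockout BMMC arrays and 0.01, 0.83 and 1.26 on wild-type BMMC arrays. All wild-type cocultured arrays lay below all wild-type BMMC arrays, as in 25.5 percent of all genes in either direction. The BMMC arrays were widely spread. The difference was -1.06 in wild-type cells (SE 0.40, adjusted p = 0.107) and -0.40 in knockout cells (SE 0.40, adjusted p = 0.546). On A_52_P672850, whose levels were -2.31 to -0.06 on knockout cocultured, -1.62 to -0.80 on wild-type cocultured, -1.08 to -0.24 on knockout BMMC and -1.11 to -0.78 on wild-type BMMC arrays, the larger difference was the knockout one, -0.81 (SE 0.44, adjusted p = 0.242), and the wild-type one was -0.13 (SE 0.44, adjusted p = 0.897). Neither probe passed in either genotype. A further probe, A_52_P148678, is named Plcg1 in the authors' annotated table and by a transcript in the scanner files. It had an average difference of -0.74 (SE 0.26, adjusted p = 0.0455 in the fit with 1 test per probe).

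**Figure D2:**
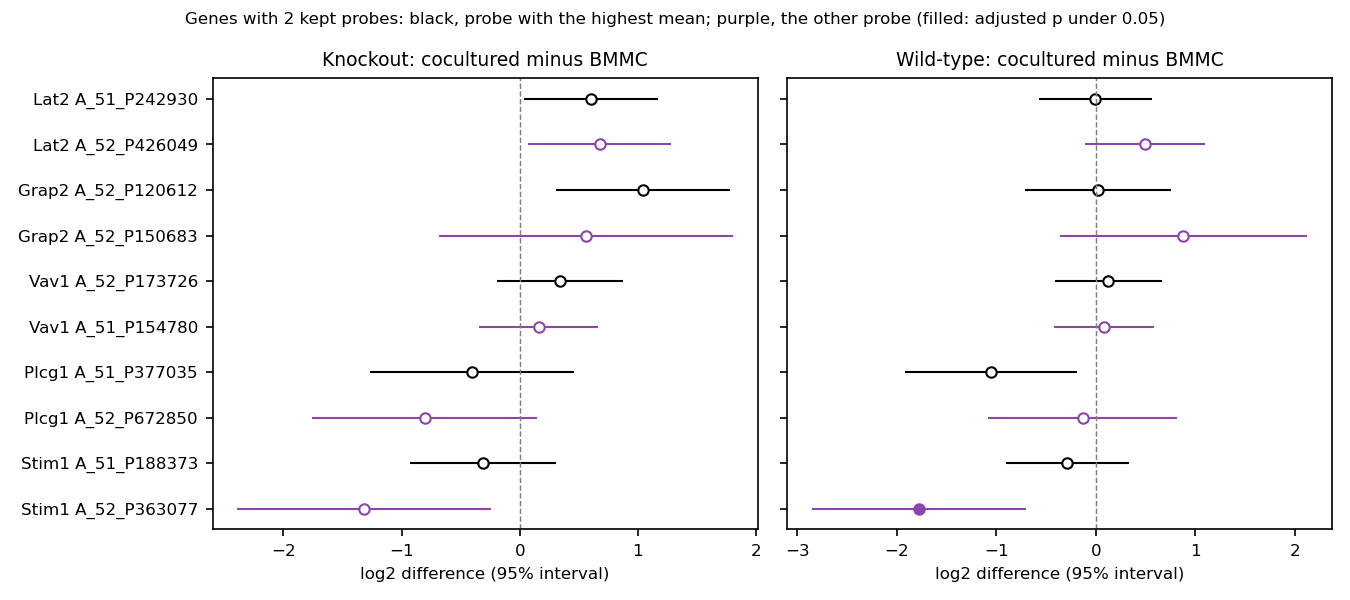
Coculture differences, as log2 values with 95% intervals on the horizontal axis, of both kept probes of Lat2, Grap2, Vav1, Plcg1 and Stim1, knockout cells on the left and wild-type cells on the right. Black is the probe with the highest mean, purple the other, and a filled point passed the test. The Plcg1 probes have their larger differences in opposite genotypes. The points of Stim1 A_52_P363077 include arrays not well above background, so their distance from 0 is not a measured size. Its filled point in wild-type cells is no support for a fall, because the probe was kept mainly through the BMMC arrays.

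Stim1, the calcium sensor of the endoplasmic reticulum, stood at 3.72, 4.07 and 2.90 on knockout cocultured arrays and 3.85, 3.82, 3.26 and 3.93 on wild-type cocultured arrays. It stood at 4.00, 3.87, 3.90 and 3.73 on knockout BMMC arrays and 3.90, 3.82 and 4.29 on wild-type BMMC arrays. The lowest 2 of the 14 values were those of the slide 4 pair. The difference was -0.31 in knockout cells and -0.29 in wild-type cells (SE 0.28 each, adjusted p = 0.509 and 0.592), and without that pair 0.02 and -0.14. A dim second probe, A_52_P363077, was well above background on 1 of 3 knockout cocultured, 0 of 4 wild-type cocultured, 3 of 4 knockout BMMC and 1 of 3 wild-type BMMC arrays. It passed the filter on low values mainly through the BMMC arrays, so a test of its coculture difference is no support for a fall. In wild-type cells its means were -5.66 in cocultured cells and -3.87 in BMMCs. Both means include arrays not well above background, so neither a size nor a bound is given.

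Orai1, the pore of the store-operated calcium channel, had levels of -0.07 to 0.23 on knockout cocultured arrays, -0.24 to 0.41 on wild-type cocultured arrays, -0.38 to 0.27 on knockout BMMC arrays and -0.05 to 0.17 on wild-type BMMC arrays. All groups overlapped. The coculture difference was 0.12 in knockout cells (95% interval -0.39 to 0.63) and 0.05 in wild-type cells (95% interval -0.46 to 0.56), with adjusted p of 0.782 and 0.928.

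**Figure D3:**
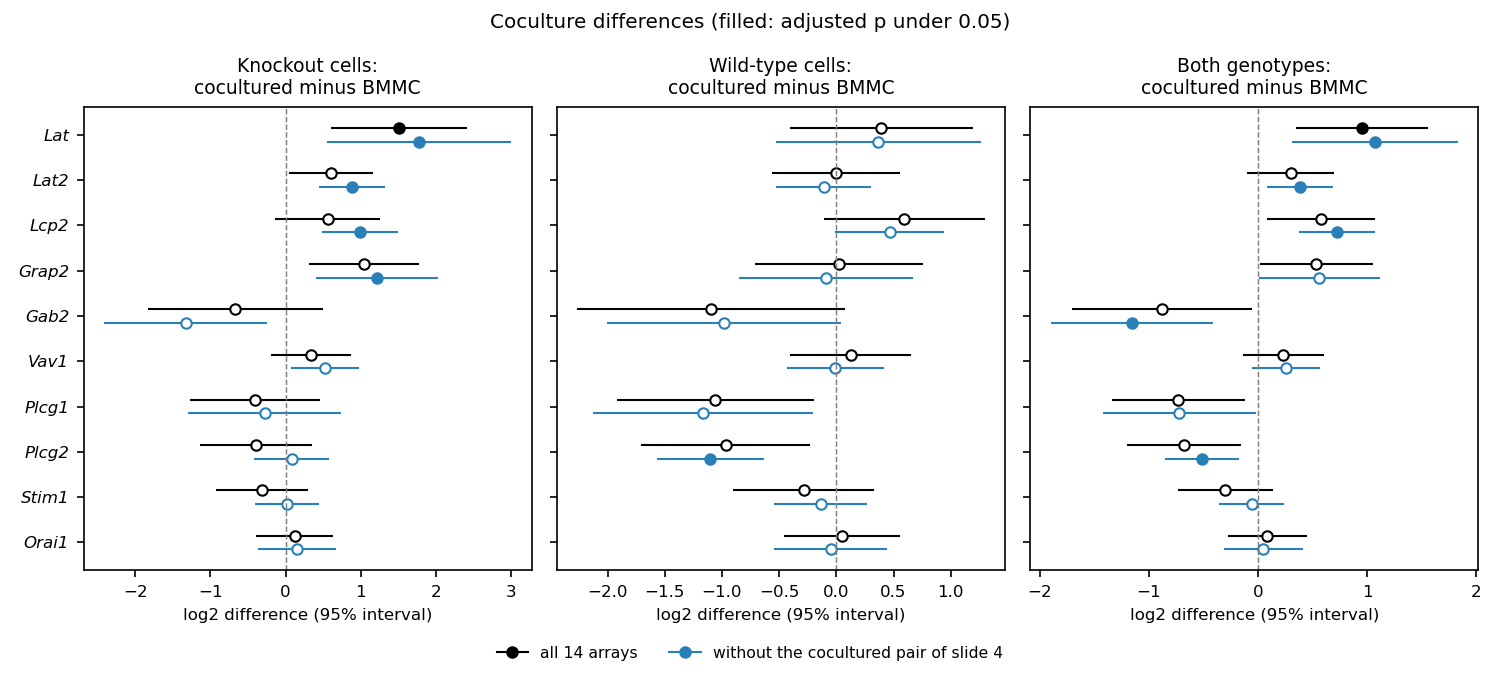
Coculture differences of the 10 genes, as log2 values with 95% intervals on the horizontal axis, in knockout cells, in wild-type cells and averaged over both. Black is all 14 arrays, blue the same fit without the cocultured pair of slide 4, and filled points passed the test; on all arrays Lat alone is filled, and without the pair 4 genes are filled in knockout cells and Plcg2 in wild-type cells.

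Lat stayed called without the slide 4 pair, and other genes passed only without it. With the pair left out, 4 of the 10 genes rose with coculture in knockout cells, namely Lat, Grap2 (1.22, SE 0.37, adjusted p = 0.0279), Lat2 (0.88, SE 0.20, adjusted p = 0.00829) and Lcp2. The share called among all genes was then 31.4 percent, and 20.1 percent higher, beside 14.5 and 8.5 percent with the pair. Leaving out arrays chosen for their poor match to their own groups favours calls, so these are no independent test. In wild-type cells 1 of 10 fell, Plcg2, against 22.9 percent of all genes called and 12.7 percent lower. Averaged over both genotypes 3 rose, Lat, Lat2 and Lcp2, and 2 fell, Plcg2 and Gab2, against 36.7 percent of all genes, 20.5 percent higher and 16.2 percent lower. Gab2 was then well above background on 1 of the 5 cocultured arrays left. Its probe was kept mainly through the BMMC arrays, so its call is no support for a fall.

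Several of these genes stood higher on the cocultured arrays with the lowest summed fibroblast marker signal, and others did not. The 3 highest cocultured Plcg2 levels, 4.20, 4.18 and 3.75, were on knockout cocultured 2, knockout cocultured 1 and wild-type cocultured 3, where the summed fibroblast signal was 68.2, 49.2 and 53.1. The other 4 cocultured arrays had Plcg2 levels of 2.77 to 3.41 and sums of 91.3 to 466. The same 3 arrays held the highest cocultured levels of Lat2, Lcp2, Vav1 and Plcg1 on the probe of highest mean. For Lat, Grap2, Gab2, Stim1 and Orai1 these 3 arrays did not hold the 3 highest levels. They held the lowest on the other Plcg1 probe, A_52_P672850, and on A_52_P148678, and on Lat2 A_52_P426049 knockout cocultured 2 was not among the 3 highest. Of the 19 markers, 11 to 18 were well above background on knockout cocultured arrays and 12 to 19 on wild-type cocultured arrays. Their part in these results was not tested, and in RNA of a whole harvest fewer mast cells and less RNA per mast cell cannot be told apart. As background, Lat, Lat2, Lcp2, Grap2, Vav1 and Plcg2 are used mainly by blood cells, and Gab2, Plcg1, Stim1 and Orai1 also by fibroblasts. The median coculture difference of the first 6 was 0.58 in knockout and 0.07 in wild-type cells, and that of the other 4 was -0.36 and -0.67. Over all genes it was 0.11 and -0.01. The other 4 include the dim Gab2, whose direction did not hold under all settings. They also include Plcg1, whose wild-type difference was -1.06 on A_51_P377035 and -0.13 on A_52_P672850. Macrophage markers, which could come with Plcg2 and Lcp2, summed to 57.8 on wild-type BMMC 2 and to 3.79 to 15.9 on the other 13 arrays.

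**Figure D4:**
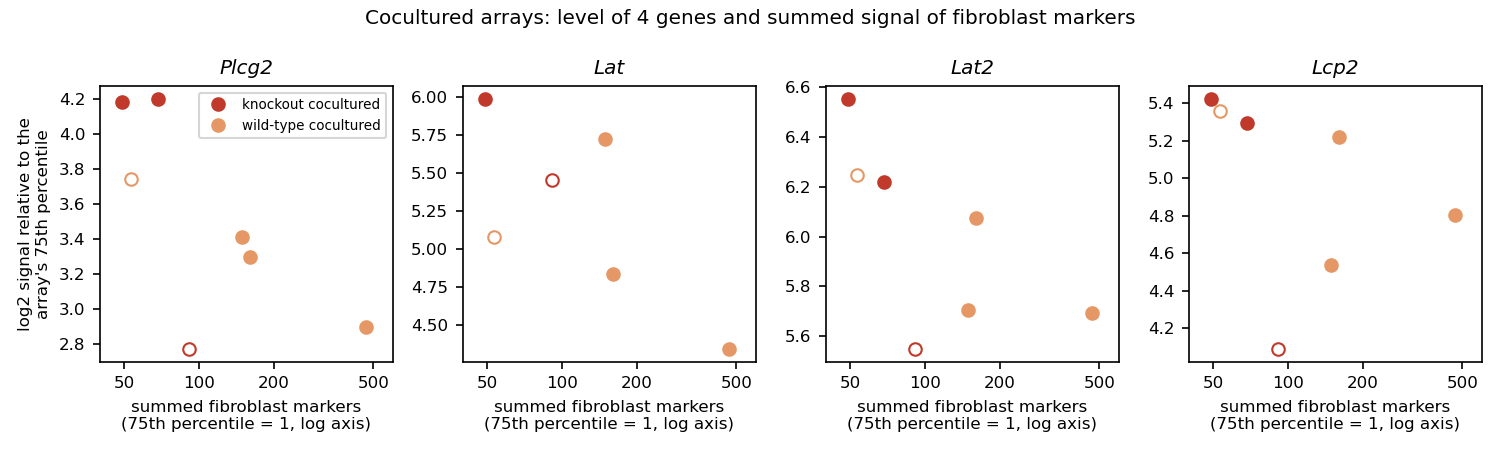
Level of Plcg2, Lat, Lat2 and Lcp2, as log2 signal relative to the array's 75th percentile, against the summed signal of 19 fibroblast markers on a log axis, for each cocultured array. Red points are knockout and orange points wild-type arrays, and open points are the pair of slide 4; the 3 arrays with the lowest sums have the highest levels of Plcg2, Lat2 and Lcp2, and Lat has no value on knockout cocultured 2.

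Loss of Pla2g3 was compared with wild type in each culture stage. In cocultured cells limma called 0 of 10 genes, as it called 0 percent of all genes, and 0 of 10 had an unadjusted p under 0.05, against 3.82 percent of all genes. The differences ran from -0.15 for Stim1 to 0.73 for Lat (95% interval -0.18 to 1.64), and the widest intervals reached -0.85 and 1.64. In BMMCs it again called 0 of 10 genes and 0 percent of all genes, and 0 of 10 had an unadjusted p under 0.05, against 1.08 percent of all genes. The differences ran from -0.59 for Plcg1 (95% interval -1.45 to 0.27) to 0.06 for Vav1. In 9 of 10 genes the mean was lower in knockout BMMCs, and the median difference was -0.16 beside -0.09 over all genes. Under at least 1 of 4 other scalings or background corrections, 6 of these 9 directions did not hold. Gab2 is counted there for its difference of 0 on the authors' normalized values, which was fixed. These intervals allow changes of over 1 on the log2 scale for Lat, Grap2, Gab2, Plcg1 and Plcg2, so the tests do not show that the genotypes were alike.

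Without the slide 4 pair the comparison of cocultured cells read differently. These 2 arrays were singled out because each correlated better with the opposite genotype, so leaving them out favours genotype differences by construction, and the p-values that follow describe the remaining arrays and are no independent test. Plcg2 was then higher in knockout than in wild-type cocultured cells by 0.99 (SE 0.24, adjusted p = 0.0142), or 1.99-fold, at 4.18 and 4.20 on the knockout arrays and 3.41, 2.90 and 3.30 on the wild-type arrays. It was the 1 gene of the 10 called, against 24.8 percent of all genes called and 15.3 percent higher, shares that were 0 percent with the pair. With all arrays its difference was 0.38, and it turned to -0.09 with normexp and -0.01 on the authors' normalized values. On slide 2, which held 1 array of each, Plcg2 differed by 0.79, and on slide 4 by -0.97. The summed fibroblast signal was 49.2 and 68.2 on the knockout cocultured arrays left without the pair. On the wild-type cocultured arrays left it was 149, 466 and 160. For calls between genotypes that rest on these arrays, genotype and fibroblast signal cannot be told apart. The genotype difference of the coculture response, called for 0 of 10 genes and 0 percent of all genes on 14 arrays and with an unadjusted p under 0.05 for 0 of 10 and 0.799 percent of all genes, passed for Plcg2 (1.18, SE 0.31, adjusted p = 0.0351) and Lat2 (0.99, SE 0.27, adjusted p = 0.0422) without the pair, against 12 percent of all genes called and 8.38 percent higher. On all arrays these differences were 0.57 for Plcg2 and 0.61 for Lat2 (adjusted p = 0.995 each). Under other scalings or background corrections, that of Plcg2 turned below 0 in 2 of 4, down to -0.34. That of Lat2 did so in 1 of 4, at -0.32.

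**Figure D5:**
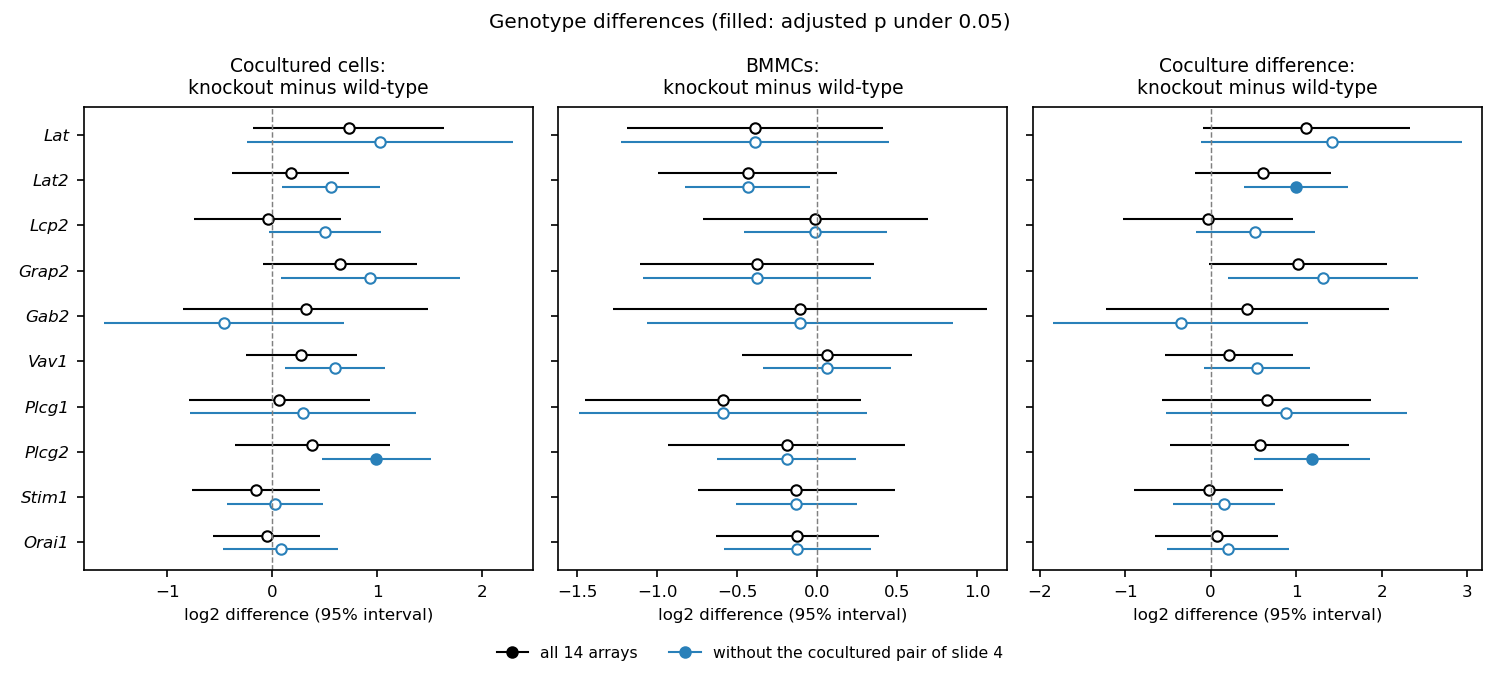
Knockout minus wild-type differences of the 10 genes, as log2 values with 95% intervals on the horizontal axis, in cocultured cells, in BMMCs and for the coculture response. Black is all 14 arrays, blue the same fit without the cocultured pair of slide 4, and filled points passed the test; no black point is filled, and the blue points of Plcg2 in cocultured cells and of Lat2 and Plcg2 for the response are.

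Genes that act around these adaptors changed in both directions with coculture, averaged over genotypes, as did all genes tested, of which 15.3 percent rose and 13.4 percent fell. Of 14 tested receptor chains and kinases upstream, 3 rose and 4 fell. The Src family kinase gene Fyn rose by 2.02 (SE 0.31, adjusted p = 0.000475), and Pag1, which anchors the inhibitory kinase CSK, was lower by a difference of -2.22 (SE 0.38). Of 22 other adaptors and exchange factors, 2 rose and 4 fell. Skap2 rose by 1.03 (SE 0.24), and Clnk and Blnk, relatives of Lcp2, had differences of -2.16 (SE 0.50) and -1.10 (SE 0.31). Of 19 negative regulators 3 rose and 3 fell, among them Spred1, an inhibitor of Ras signalling, at 1.23 (SE 0.15) and Dgkz, which converts diacylglycerol, at -1.18 (SE 0.18).

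Of 8 tested phospholipase C genes outside the gamma class, 1 rose and 2 fell. Plcb1 had a difference of -2.54 (SE 0.27) and was well above background on 6 of 7 cocultured and 7 of 7 BMMC arrays. Of 15 other calcium store and entry genes, 3 rose and 4 fell. Among them the inositol trisphosphate receptor gene Itpr2 had a difference of -1.16 (SE 0.30), Orai3 one of -0.78 (SE 0.20) and Stim2 one of 0.68 (SE 0.18). Of 22 genes downstream of diacylglycerol and calcium, 6 rose and 5 fell. Rasgrp1 and Rasgrp4, exchange factors for Ras that bind diacylglycerol, had differences of -3.11 (SE 0.33) and -2.40 (SE 0.27), Prkcq, a protein kinase C, one of -2.15 (SE 0.30), and Bcl10, which links protein kinase C to NF-kB, one of 1.27 (SE 0.14). The median differences of these 6 lists lay between -0.14 and 0.21, beside 0.05 over all genes. On all 14 arrays no gene of these lists passed between the genotypes or for the difference of the responses. Without the slide 4 pair, Clnk, Skap2, Blnk, Itpr2 and Rasgrp1 were among those called between the cocultured genotypes, and Clnk, Skap2 and Itpr2 among those called for the responses, with the limit on such calls given above. The calls of Fyn, Pag1, Skap2, Plcb1, Orai3 and Stim2 ended under 1 to 3 of 12 other settings.

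The genes whose levels over the 13 arrays followed Lat most closely, after each was centred on its mean, were Ghitm and Gabarapl1. The root mean square distance from Lat was 0.257 and 0.258 on the log2 scale, where the SD of Lat was 0.68. Ghitm averaged 5.40 in knockout cocultured, 4.95 in wild-type cocultured, 3.98 in knockout BMMC and 4.29 in wild-type BMMC arrays.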

How the data were processed

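RNA was measured on 14 Agilent single-colour arrays. The authors' deposited spot intensity values came from Agilent Feature Extraction 9.5.1.1, per the submitters' processing notes, and the processed signal used here was not scaled between arrays. The authors also deposited a table in which a constant of 67 to 172 per array was taken from the raw intensity, used as an alternative. Its values under 1 were set to 1 before the log2 scale, so probes dimmer than the constant show no difference there. The 14 call columns of that table were not used. The deposited intensity was put on the log2 scale and each array's 75th percentile subtracted. Control spots and outlier spots were left out, and spots of 1 probe averaged. A probe was kept if it was well above background on 3 or more arrays and had 2 or more values per group; where a gene had several, that of highest mean represented it, which left 16012 genes. Between 42.6% and 55.9% of 41174 probes were well above background per array, 0 to 3 were saturated, and the number of arrays limits precision.

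Differences were tested two-sided with limma 3.58.1 in R 4.3.3, in 1 fit of 4 groups and 6 contrasts, with Benjamini-Hochberg adjustment over all genes; "rose", "fell" and "passed" mean an adjusted p under 0.05. The fit was tested on simulated data. Same-numbered BMMC arrays deviated together from their group means (r = 0.197, 0.497 and 0.491 for numbers 1 to 3). BMMC arrays of other numbers had r of -0.30 to 0.36. Those of the same number also shared a slide, so pairing by number and by slide cannot be told apart. Cocultured arrays of the same number did not deviate together (r = -0.43, -0.15 and -0.54). The rule named all 10 genes in every contrast, up to 4 passing genes of each other list by adjusted p, and the 2 genes closest to any that passed. The genes and lists were chosen with earlier results of these data known. Alternatives were other background corrections, scalings, filters, blocks and omissions.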

Additional observations from a re-analysis of the deposited data

Results flagged for a closer look

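Among the 20 groups of 4 arrays examined, wild-type cocultured 3 stood apart from the other wild-type cocultured arrays in Stim1: its level was 3.26 against 3.82 to 3.93, a gap of 0.841 of the whole range, above Dixon's 95% critical value. Chance flags about 1 in 20 groups. That array is one of the pair of slide 4.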

How the results depend on the processing

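No comparison of the genotypes changed its count of called genes under another scaling, filter or block. For coculture in wild-type cells, 0 of the 10 genes were called, and 1 was with quantile normalization, with the mean of all probes and without the slide 4 pair. The call with the mean of all probes was Stim1 (-1.03). That mean takes in the dim probe A_52_P363077, so the call is no support for a fall. For coculture in knockout cells, 1 was called, 0 with quantile normalization, median scaling, the authors' values, no filter or the replicate block, 2 with probes above background on at least 7 arrays or slide as a random block, and 4 without the pair. For the average, 1 was called, 0 with median scaling, 2 with normexp, quantile normalization, the authors' values, 7 arrays or the mean of all probes, 3 with slide as a random block and 5 without the pair. Stim1 (-0.92) was 1 of the 2 with the mean of all probes, and Gab2 1 of the 5 without the pair. Neither call is support for a fall. Without the pair 1 gene was called between cocultured genotypes and 2 for the response. Leaving out 1 array gave 0 to 1 called genes for wild-type coculture, 0 to 4 for knockout coculture, 0 to 4 for the average and 0 for each genotype comparison; the low end came without knockout BMMC 1, 2 or 4 or knockout cocultured 1 (knockout cells) and without wild-type BMMC 2 (average), and the high end without knockout cocultured 3. The causes were not tested. The replicate block, with numbers not shown to pair cocultured arrays, moved Lat in knockout cells to 1.25 (limma adjusted p = 0.0986). In BMMCs, where same-numbered arrays also shared a slide, it changed no call. Median scaling moved the median of all genes from -0.01 to -0.20 for wild-type coculture and from 0.11 to 0.13 for knockout coculture. Signal near background limits Gab2 and the second Stim1 probe.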
